A study of Mus musculus with 2 samples.

Results

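The genes described here carry symbols of subunits of the mitochondrial respiratory chain and of ATP synthase, and were read across the non-myocyte cells of the mouse heart. They were chosen by symbol: Nduf, Sdh, Uqcr, Cox and Atp5 subunit names for the nuclear genes and the mt- prefix for the genes of the mitochondrial genome, with at least 20 unique molecular identifiers (UMIs) summed over both libraries. Of 22441 symbols in the deposited matrices, 99 matched the pattern and 96 reached the minimum, 83 nuclear and 13 mitochondrially encoded. Just outside the minimum lay Cox5b-ps with 16 UMIs and Cox7b2 and Cox8c with 0, and just inside it Cox6b2 with 57 and Cox8b with 157. Complex I was represented by 36 nuclear and 7 mitochondrial genes, complex II by 4 nuclear genes, complex III by 8 and 1, complex IV by 18 and 3, and complex V by 17 and 2. The nuclear genes of complex I include Ndufb1-ps, which the annotation used here lists as a long non-coding RNA and not as protein-coding. Ndufa4 and its relative Ndufa4l2 were counted with complex IV, where the Ndufa4 protein is known to sit, and so was Cox7a2l, a factor that joins complexes.

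Cells came from hearts of C57/B6 mice of 2 genotypes, AC8 overexpressing mice and their wild-type littermates (WT), with no treatment of either. AC8 is adenylyl cyclase 8, which makes the second messenger cyclic AMP, and the series title places its overexpression in cardiomyocytes, which were not among the sorted cells. Hearts of each genotype were pooled, and leukocytes (CD45+CD31-), mesenchymal cells (CD45-CD31-) and endothelial cells (CD45-CD31+) were sorted, mixed in equal numbers and made into 1 droplet library per genotype. The age, sex and number of the mice, and the promoter of the transgene, are not given in the labels. Each genotype has 1 library, so no difference could be set against replicates or tested, and genotype, pool and library preparation cannot be told apart, and every interval below is an exact 95% interval that covers counting error only.

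The respiratory chain passes electrons from NADH through complex I, or from succinate through complex II, by way of ubiquinone, complex III and cytochrome c to oxygen at complex IV. Complexes I, III and IV pump protons across the inner mitochondrial membrane, and complex V, the ATP synthase, lets them back to make ATP. All complexes but II are mosaics. Their core membrane subunits are encoded in mitochondrial DNA, which is transcribed as long precursors that are cut at the tRNAs between the genes, and the other subunits are encoded in the nucleus and imported. Many of the nuclear genes are known targets of the factors NRF1, GABP (an ETS factor) and YY1. In the heart this system is known for its abundance in cardiomyocytes, and the other cells of the heart hold less of it.

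The promoters of a few members are shown because those genes stood out in macrophage-like cells. In RefSeq's promoter windows (GRCm38.p6, 250 bases before to 50 after the start), 68 of the 83 nuclear members had an entry. The NRF1 core GCGCATGC lay in 14.7% of them, against 3.94% of the 17492 protein-coding genes with a window, both strands searched. The ETS core CCGGAAG lay in 25% of member promoters against 12.9% of all, the YY1 core AAGATGGC in 14.7% against 3.57%, and any of the 3 in 45.6% against 18.7%. Below are the 250 bases before the start, written 5′ to 3′ on the gene's strand, of the 4 nuclear members with the highest AC8 over WT ratio in macrophage-like cells among those with an entry and at least 100 UMIs there, and of Cox7a2l, which was lower. Capitals mark the NRF1 or ETS core on either strand. Ndufb6 (chr4:40279422-40279671, minus strand), which encodes an accessory subunit of the membrane arm of complex I, holds an ETS core, and Atp5g2 (chr15:102671048-102671297, minus strand), a gene for the c ring of ATP synthase, holds a pair of NRF1 matches that overlap, one being the reverse of the other. Cox5a (chr9:57520982-57521231, plus strand), a subunit of complex IV, Atp5g1 (chr11:96075632-96075881, minus strand), another gene for the c ring, and Cox7a2l (chr17:83514334-83514583, minus strand), for a protein that joins complexes III and IV, hold none of the cores in these bases. In the GENCODE positions used elsewhere here, Cox7a2l (chr17:83501918-83517330) and Atp5g2 (chr15:102662864-102672352) start further upstream, so their windows lie inside the genes. Bases before those outer starts were not read. Higher members thus stood with and without a core, and a match is only a run of letters in this window.
Ndufb6: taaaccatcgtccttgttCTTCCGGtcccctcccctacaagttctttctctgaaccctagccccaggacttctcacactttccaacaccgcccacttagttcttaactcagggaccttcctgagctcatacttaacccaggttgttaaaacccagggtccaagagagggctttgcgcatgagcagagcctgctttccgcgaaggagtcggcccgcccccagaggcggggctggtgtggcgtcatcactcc
Cox5a: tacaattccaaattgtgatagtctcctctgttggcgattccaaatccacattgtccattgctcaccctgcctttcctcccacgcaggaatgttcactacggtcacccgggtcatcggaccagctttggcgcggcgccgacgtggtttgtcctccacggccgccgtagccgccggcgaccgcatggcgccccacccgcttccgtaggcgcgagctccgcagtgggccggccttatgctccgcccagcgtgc
Atp5g1: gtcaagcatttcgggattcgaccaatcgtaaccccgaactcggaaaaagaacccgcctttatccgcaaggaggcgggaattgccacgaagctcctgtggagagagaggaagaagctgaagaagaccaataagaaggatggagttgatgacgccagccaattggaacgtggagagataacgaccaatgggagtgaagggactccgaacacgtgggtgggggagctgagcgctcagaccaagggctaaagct
Atp5g2: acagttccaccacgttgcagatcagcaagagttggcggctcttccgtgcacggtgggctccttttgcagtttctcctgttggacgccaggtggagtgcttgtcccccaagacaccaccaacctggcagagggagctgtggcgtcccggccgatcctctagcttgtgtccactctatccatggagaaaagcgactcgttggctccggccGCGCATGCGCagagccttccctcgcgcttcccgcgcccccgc
Cox7a2l: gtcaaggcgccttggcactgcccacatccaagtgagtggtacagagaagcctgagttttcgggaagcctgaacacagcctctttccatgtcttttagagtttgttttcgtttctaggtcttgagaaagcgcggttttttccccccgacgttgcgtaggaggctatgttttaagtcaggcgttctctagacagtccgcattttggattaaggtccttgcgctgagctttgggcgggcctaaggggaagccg

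The AC8 library held 4867 cells with a median of 1832 UMIs, and the WT library 5800 cells with a median of 1344. After filtering, 3578 AC8 and 3546 WT cells with medians of 2321 and 1882 UMIs formed 23 clusters, 19 of which took a cell type from marker genes and fell into 10 classes, called "like" that type. All 99 matching genes were left out of the variable genes, so the classes do not rest on the genes described. A limit on mixed markers, set after the clusters had been seen, left 4 clusters unnamed, with 94 AC8 cells (2.63%) and 116 WT cells (3.27%). Cell barcodes are deposited as running numbers, so barcodes shared by the libraries could not be counted. The 4 main classes, with at least 100 cells in each library, were fibroblast-like (1542 AC8 and 1896 WT cells), macrophage-like (704 and 538), endothelial-like (565 and 599) and B cell-like (294 and 104).

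Summed over the 83 nuclear members, mural-like cells (pericytes and smooth muscle cells by their markers) gave the largest share of their UMIs to the respiratory chain, 3.54% in AC8 and 2.76% in WT. Next in AC8 came dendritic-like cells with 2.42%, against 1.97% in WT. Endothelial-like cells held 2.09% and 2.05%, fibroblast-like cells 2.05% and 1.79%, macrophage-like cells 1.72% and 1.27%, and B cell-like cells 1.63% and 1.67%, AC8 before WT in each pair. The mitochondrially encoded members followed another order of classes. Mural-like cells were again highest, with 4.72% in AC8 and 3.72% in WT, but B cell-like cells, the lowest in AC8 for the nuclear genes, came next with 2.87% and 3.07%. Dendritic-like cells were lowest for the mt- genes, with 1.29% and 1.44%. Mitochondrial and nuclear shares thus ranked the classes differently in both libraries.

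**Figure D1:**
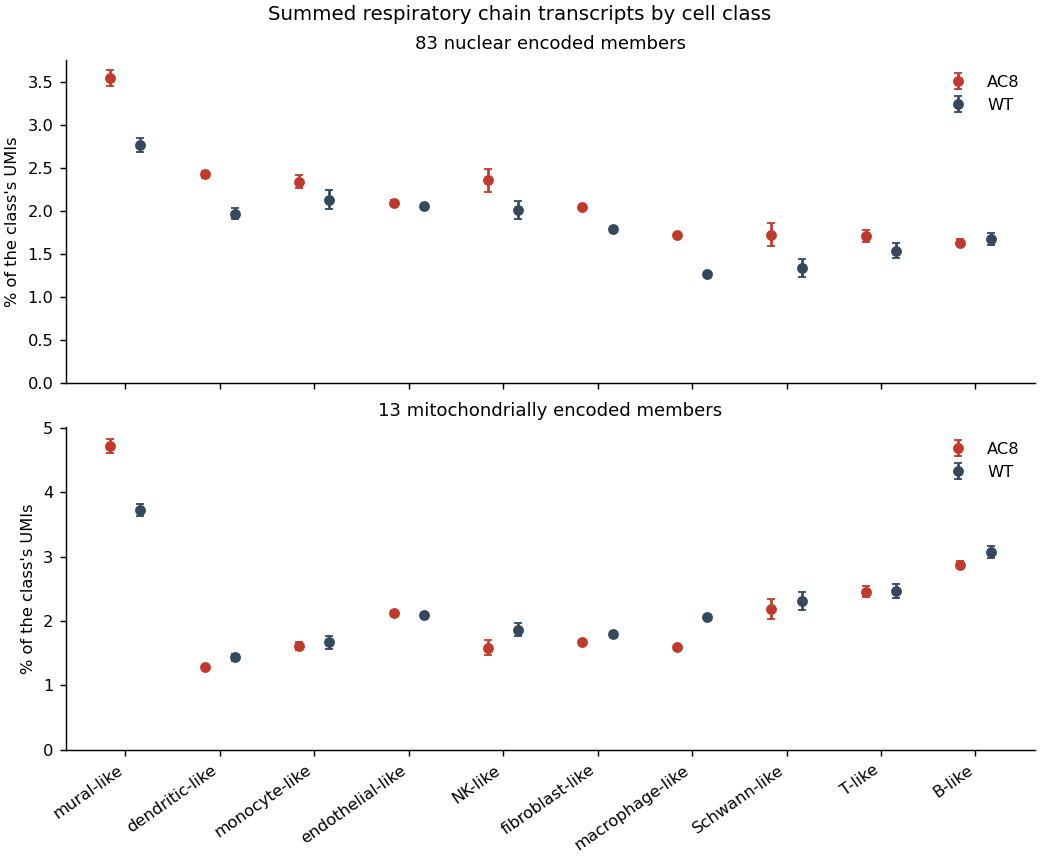
Share of each class's UMIs (y axis, percent) taken by the 83 nuclear members (upper panel) and the 13 mitochondrially encoded members (lower panel) in 10 cell classes, AC8 in red left of WT in grey-blue; bars are exact 95% counting intervals. The AC8 share of the nuclear members lies above the WT share in every class but the B cell-like one, with 1.72% against 1.27% in macrophage-like cells, while the mt- share of macrophage-like cells is lower in AC8.

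Among nuclear members the AC8 library was higher than WT in 9 of the 10 classes, with endothelial-like and B cell-like cells close to WT. The ratio of AC8 over WT was 1.36 in macrophage-like cells (1.33 to 1.38), 1.28 in mural-like cells (1.23 to 1.33), 1.23 in dendritic-like cells (1.19 to 1.28) and 1.15 in fibroblast-like cells (1.14 to 1.16). In endothelial-like cells it was 1.02 (1.0005 to 1.04), and 0.974 over every deposited cell. In B cell-like cells it was 0.975 (0.929 to 1.02), an interval that spans 1, and 1.06 by median-of-ratios scaling. Markers of red blood cells, RNA foreign to these classes, differed between the libraries, with 6.09 CPM in AC8 and 205 CPM in WT in macrophage-like cells, 713 and 2632 CPM in endothelial-like cells and 5.41 and 19.5 CPM in fibroblast-like cells, and their part in the results was not tested. The genes of the cytosolic ribosome, abundant and short like many of the members, did not move in parallel. Their ratio was 0.9504 in macrophage-like, 1.02 in fibroblast-like and 0.875 in dendritic-like cells, although it was 1.12 in mural-like cells.

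The mt- members went the other way in several of these classes. Their summed ratio of AC8 over WT was 0.771 in macrophage-like cells (0.759 to 0.783), 0.895 in dendritic-like cells (0.855 to 0.936), 0.929 in fibroblast-like cells (0.920 to 0.938) and 0.935 in B cell-like cells (0.902 to 0.969), where median-of-ratios scaling turned it to 1.02. In endothelial-like cells it was 1.01 (0.994 to 1.04), and mural-like cells, with 1.27 (1.23 to 1.31), were higher for both sets. With no limit on a cell's mitochondrial share the macrophage-like ratio was 0.780, the fibroblast-like 0.923, the endothelial-like 1.03 and the B cell-like 0.946. UMIs of mt- genes per cell, which carry no scaling, were higher in AC8 macrophage-like cells, 55.7 against 45.2 in WT, and the AC8 cells were deeper, with a median of 2981.5 UMIs against 1909.5. The number of mt- UMIs per nuclear member UMI was 0.926 in AC8 macrophage-like cells and 1.63 in WT ones.

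Macrophage-like cells showed the widest gap between nuclear and mitochondrial members. Of the 78 nuclear members measured in them (at least 30 UMIs over both libraries), 56 were at least 25% higher in AC8 and 1 was at least 20% lower, which is a log2 ratio past 0.32 either way, with 10 CPM (UMIs per 1000000) added to both levels. Over all 8144 genes measured in this class 19.9% were that much higher and 23.5% that much lower. Among the genes with at least 300 UMIs, which are closer to the members in abundance, these shares were 27.3% and 24.1%. The median log2 ratio of the nuclear members was 0.39, and that of all genes -0.02. The other 5 nuclear members were below 30 UMIs in this class and were not read.

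By complex, the nuclear subunits of complex V showed the largest macrophage-like ratio, 1.41 (1.36 to 1.45), with 14 of 17 members at least 25% higher. Complex I followed with 1.38 (1.33 to 1.43) and 27 of 36 members, complex IV with 1.32 (1.27 to 1.37) and 8 of 13 measured members, and complex III with 1.27 (1.19 to 1.35) and 5 of 8. Complex II, the only complex without a mitochondrially encoded subunit, stood at 1.22 (1.08 to 1.38) with 2 of 4. The intervals of complexes V and III did not overlap, and those of every other pair did. The mitochondrially encoded subunits of the same complexes stood at 0.709 for complex I, 0.747 for complex IV, 0.839 for complex III and 0.918 for complex V.

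Single members of macrophage-like cells are given by their complex. Ndufb6 had 123 CPM in AC8 and 56.8 CPM in WT, a ratio of 2.17 (1.66 to 2.87), the highest of the members with at least 100 UMIs. Ndufa13, the complex I accessory subunit with the most UMIs, had 298 and 212 CPM in AC8 and WT. Sdhb, the iron-sulfur subunit of succinate dehydrogenase, had 171 CPM in AC8 and 131 CPM in WT. In complex III, Uqcrq, a small subunit next to cytochrome b, had 225 CPM in AC8 and 132 CPM in WT, a ratio of 1.70 (1.42 to 2.05), and Uqcrb had 297 and 233 CPM. Each of these genes was higher in the AC8 library by more than its counting interval.

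Complex IV was led by Cox5a, a matrix-side subunit of cytochrome c oxidase, with 308 CPM in AC8 and 164 CPM in WT, a ratio of 1.88 (1.604 to 2.21). Cox8a, a small membrane subunit, had 723 CPM in AC8 and 511 CPM in WT. Cox7a2l went the other way with 84.0 CPM in AC8 and 124 CPM in WT, a ratio of 0.678 (0.546 to 0.844), and was the only nuclear member at least 20% lower. In complex V, a pair of genes for the same c ring protein, Atp5g1 and Atp5g2, were both higher. Atp5g1 had 247 CPM in AC8 and 143 CPM in WT, and Atp5g2 584 CPM in AC8 and 350.3 CPM in WT, with ratios of 1.72 (1.45 to 2.06) and 1.67 (1.49 to 1.86). Atp5e, the epsilon subunit of the central stalk, had 711 CPM in AC8 and 454 CPM in WT. Atp5b, the catalytic beta subunit of the same enzyme, did not share this, with 262 CPM in AC8 and 292 CPM in WT and a ratio of 0.897 (0.786 to 1.03).

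**Figure D2:**
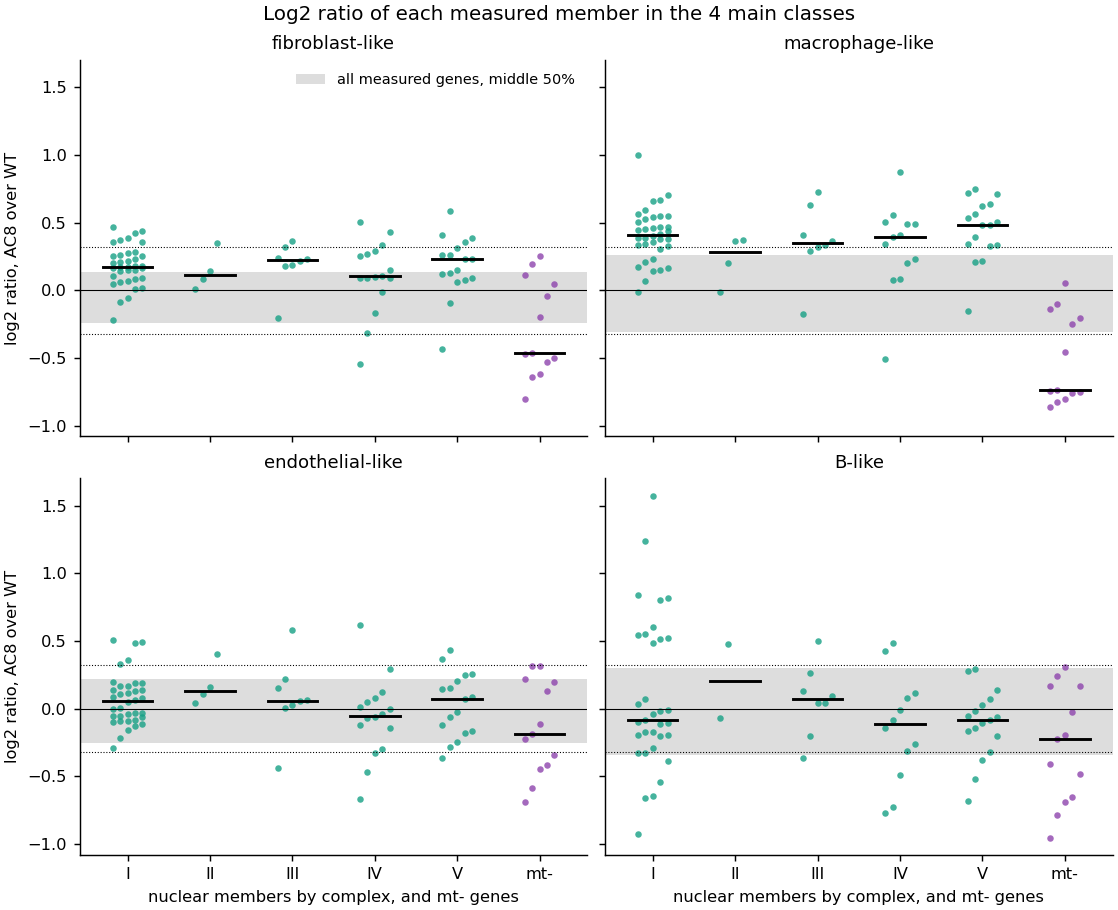
Log2 ratio of AC8 over WT (y axis, 10 CPM added) of every measured member, nuclear members by complex in green and mt- genes in purple, in the fibroblast-like, macrophage-like, endothelial-like and B cell-like (B-like) classes. Bars are medians, dotted lines mark 25% higher and 20% lower, and the grey band holds the middle 50% of all measured genes; in macrophage-like cells 56 of 78 nuclear members lie above the upper dotted line and 8 of 13 mt- genes below the lower one.

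The macrophage-like class was not filled by the same clusters in both libraries. A cluster led by Spp1, Trem2 and Lgals3 held 155 AC8 cells but 11 WT cells, and its nuclear share was 2.17% in AC8 and 2.12% in WT, the highest of the macrophage-like clusters. The other clusters, one led by C1qa and Ms4a7 (309 AC8 and 314 WT cells) and one with Lyve1, Folr2 and F13a1 (240 and 213), held 1.67% and 1.27% in AC8 against 1.36% and 1.08% in WT. Their ratios of AC8 over WT were 1.22 and 1.17, and that of the Spp1-led cluster 1.02. Without the Spp1-led cluster the class's ratio was 1.20 for nuclear members, with 27 of them at least 25% higher, and 0.845 for mt- members. The share over all genes was not counted without that cluster.

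Depth differed between the libraries and moved with these shares. In macrophage-like cells of 2000 to 3000 UMIs the nuclear members took 1.54% in 213 AC8 cells and 1.21% in 154 WT cells, a ratio of 1.27 (1.23 to 1.32), and from 3000 to 4000 UMIs 1.54% and 1.248%. In cells of 1000 to 1500 UMIs the shares were 1.21% in 56 AC8 cells and 1.253% in 125 WT cells, a ratio of 0.968 (0.892 to 1.05). The mt- share of AC8 macrophage-like cells was lower in deeper cells, 2.88% in the shallowest bin and 1.39% in the deepest, while in WT it stayed between 1.84% and 2.23%. In the shallowest bin the mt- ratio was 1.29, in AC8's favour. The nuclear ratio was above 1 in every bin from 1500 UMIs on, and the mt- ratio below 1 in every bin from that depth on, at 0.987 in cells of 1500 to 2000 UMIs and 0.697 in cells of at least 4000. The members at least 25% higher numbered 30 when cells of 1500 to 3000 UMIs were used, and 36 after every cell was thinned to 1000 UMIs. The share over all genes was not counted under either setting. A list of dissociation stress genes, such as Fos, Jun and Hspa1a, was lower in AC8 macrophage-like cells, with 10 of 20 members at least 20% lower and 0 at least 25% higher, beside 23.5% and 19.9% over all genes. Its part in the result was not tested.

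**Figure D3:**
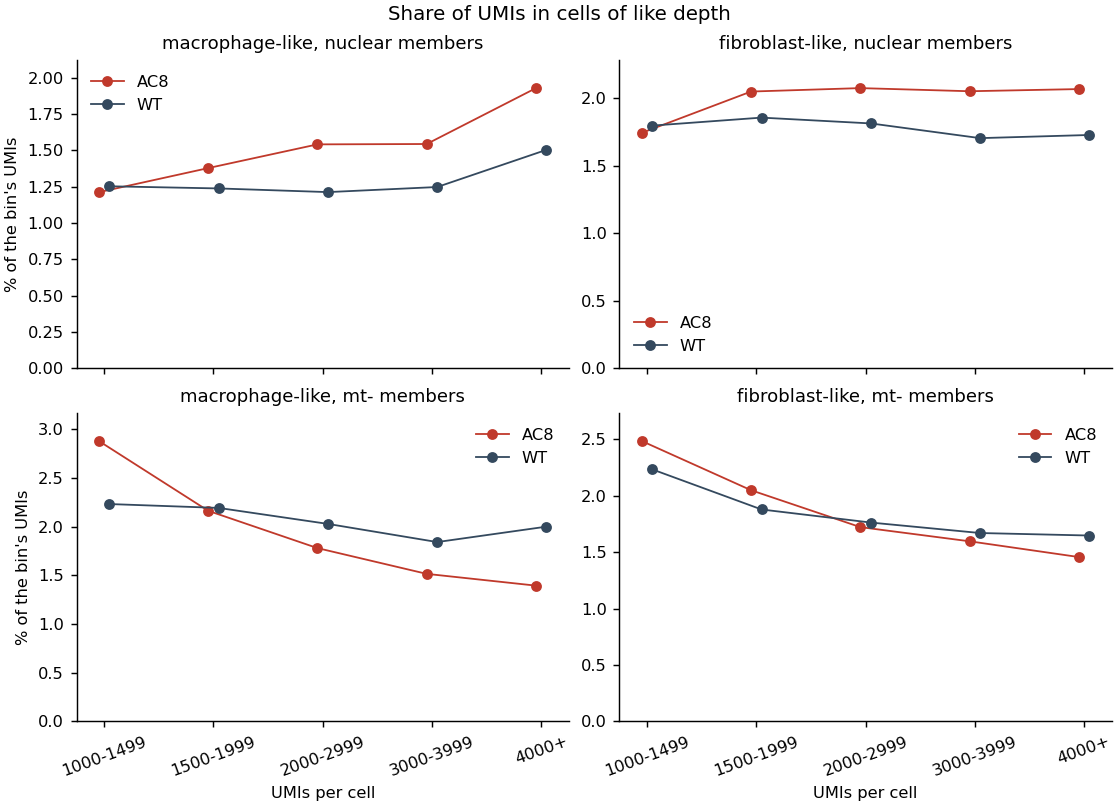
Share of UMIs (y axis, percent) taken by nuclear members (upper panels) and mt- members (lower panels) in macrophage-like (left) and fibroblast-like (right) cells grouped by UMIs per cell (x axis), AC8 in red and WT in grey-blue. In macrophage-like cells of 2000 to 3000 UMIs the nuclear share is 1.54% in AC8 and 1.21% in WT, and in the shallowest cells 1.21% and 1.253%.

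Fibroblast-like cells, the largest class, carried a smaller nuclear difference in the same direction. Of 81 measured nuclear members, 16 were at least 25% higher in AC8 and 2 at least 20% lower, beside 7.91% higher and 16.9% lower over the 10606 measured genes and 11.1% and 21.6% over those with at least 300 UMIs. The median log2 ratio was 0.18 for the nuclear members and -0.05 for all genes, and 71 of the 81 members lay above 0. With libraries scaled by the median of ratios in place of totals, 25 members were at least 25% higher and 2 at least 20% lower. The share over all genes was not counted under that scaling. All 5 complexes had summed nuclear ratios above 1, from 1.11 (1.09 to 1.14) for complex IV to 1.17 (1.15 to 1.18) for complex I, with complex V at 1.16 (1.14 to 1.18).

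In complex I, Ndufv1, the flavoprotein subunit that takes electrons from NADH, had 122 CPM in AC8 and 85.6 CPM in WT, a ratio of 1.43 (1.249 to 1.63). Ndufa3, a membrane-arm accessory subunit, had 342 CPM in AC8 and 250.02 CPM in WT, a ratio of 1.37 (1.26 to 1.48), and Ndufa13 had 487 and 359.8 CPM. Ndufa3 was higher in AC8 in all 9 classes in which it was measured, and in 7 of them its interval excluded 1. Sdhb of complex II had 168 CPM in AC8 and 129.7 CPM in WT, and Uqcrb of complex III had 380.2 and 326 CPM.

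In complex IV of fibroblast-like cells, Cox7c, a small membrane subunit, had 626 CPM in AC8 and 461 CPM in WT, and Cox8a had 751 and 696 CPM. Cox7a2l had 70.8 CPM in AC8 and 108 CPM in WT, a ratio of 0.656 (0.567 to 0.759), the lowest of the nuclear members here as in macrophage-like cells. Among the ATP synthase genes, Atp5g2 had 445 CPM in AC8 and 293 CPM in WT, a ratio of 1.52 (1.41 to 1.63), and Atp5e had 833 and 635 CPM. Atp5b had 261 CPM in AC8 and 356 CPM in WT, a ratio of 0.734 (0.679 to 0.792). Subunits of 1 enzyme thus lay on both sides of WT in the same cells.

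The fibroblast-like difference was present in 4 of the 5 fibroblast-like clusters, whose nuclear ratios ran from 1.104 to 1.16. The exception was a cluster led by Gfpt2, with 64 AC8 and 98 WT cells, where the nuclear share was 0.517% in AC8 and 0.507% in WT, well under the rest of the class. Its mt- share, 2.34% in AC8 and 1.99% in WT, was not low, and its cytosolic ribosomal share was, at 2.39% and 2.05% against 11.1% and 10.9% in the whole class. An endothelial-like cluster led by Cyyr1, with 26 AC8 and 24 WT cells, also had a low nuclear share, 0.770% in AC8 and 0.522% in WT, and a low ribosomal share, 2.31% and 2.14%. Its mt- share was 1.64% in AC8 and 1.38% in WT, below the 2.13% and 2.10% of its class, and its nuclear ratio was 1.47. In both clusters the low nuclear share was found in both libraries. By depth, fibroblast-like cells of 1000 to 1500 UMIs had nuclear shares of 1.74% in AC8 and 1.80% in WT, and those of 3000 to 4000 UMIs 2.05% and 1.70%. The mt- ratio of fibroblast-like cells was above 1 in shallow cells, 1.11 (1.07 to 1.15) at 1000 to 1500 UMIs and 1.09 (1.06 to 1.12) at 1500 to 2000, and below 1 in deeper ones, down to 0.884 at 4000 or more. The dissociation stress list was lower in AC8 here too, with 10 of 20 members at least 20% lower and 2 at least 25% higher, beside 16.9% and 7.91% over all genes. It was not lower in the other main classes, where 1 of 20 measured members was lower and 6 higher in endothelial-like cells, and 3 of 17 lower and 7 higher in B cell-like cells. Its part in the results was not tested.

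Endothelial-like cells had nearly equal nuclear sums. Of 81 measured nuclear members, 10 were at least 25% higher in AC8 and 5 at least 20% lower. Over all 7190 measured genes 16.6% were higher and 19.6% lower, and over those with at least 300 UMIs 16.5% and 15.5%, so the members did not exceed the class as a whole. Among members with at least 100 UMIs, the 5 at the upper end came from complexes I, III and V. Cox4i2 of complex IV fell below that limit, with 62 UMIs in AC8 and 37 in WT. Its log2 ratio of 0.62 was above theirs. Ndufv2, the partner flavoprotein of Ndufv1, had 142 CPM in AC8 and 96.9 CPM in WT. Ndufs7, which carries the iron-sulfur cluster next to the quinone site, had 224 CPM in AC8 and 156 CPM in WT, and Ndufv1 had 119 and 82.1 CPM. Uqcrc1, a core protein of complex III, had 196.5 CPM in AC8 and 128 CPM in WT, the largest of these ratios at 1.54 (1.21 to 1.97). Atp5g2 had 491 CPM in AC8 and 360.2 CPM in WT.

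At the lower end of the endothelial-like list stood Cox7b, a small subunit of complex IV, with 124 CPM in AC8 and 203 CPM in WT, and Uqcrh, the hinge protein of complex III, with 272 CPM in AC8 and 372 CPM in WT. Their ratios were 0.612 (0.478 to 0.781) and 0.732 (0.617 to 0.868). The members with the most UMIs barely differed. Cox4i1, the common isoform of subunit 4, had 779 CPM in AC8 and 782 CPM in WT, Uqcrb had 483 and 474 CPM, and Ndufa6 had 365 and 364 CPM.

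B cell-like cells were the shallowest of the main classes, with 384885 UMIs in AC8 and 135576 in WT, and counting error was large for single genes. Of 72 measured nuclear members, 15 were at least 25% higher in AC8 and 14 at least 20% lower, beside 23.3% and 26.8% over 2811 measured genes and 20.6% and 16.4% over those with at least 300 UMIs. The members' counts were near this background. With median-of-ratios scaling, which moved all genes of the class by 0.13 on the log2 scale, 18 were higher and 9 lower. The share over all genes was not counted under that scaling. Complex I, with 33 of the 72 measured members, made up 11 of the 15 higher and 7 of the 14 lower ones, and its median log2 ratio was -0.08. Among members with at least 100 UMIs, Ndufa13 was highest, with 239 CPM in AC8 and 133 CPM in WT, a ratio of 1.80 (1.08 to 3.17). Ndufa3 had 421 and 273 CPM, a ratio of 1.54 (1.07 to 2.27). Ndufa6, Cox5a and Ndufa4, next in order, had intervals that spanned 1. Atp5b had 249.4 CPM in AC8 and 406 CPM in WT, a ratio of 0.615 (0.437 to 0.873).

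Across the main classes, 22 of the 72 nuclear members measured in all 4 were higher in AC8 in each of them. They included Ndufa3, Ndufv1, Ndufs3 and Ndufs7 of complex I, Uqcrc1, Uqcrc2 and Uqcrfs1 of complex III, Cox5a, Cox5b and Cox7c of complex IV, and Atp5d, Atp5e and Atp5o of complex V. Lower in all 4 were 3 members, Atp5b, Cox7a2l and Uqcrh. Of the 2435 genes measured in all 4 classes, 20.1% were higher in each and 24.6% lower in each. The classes share each library's preparation and are not independent of each other, and no count of shared direction was tested.

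The 13 mt- genes did not move as 1 block. Those lower in AC8 in all 4 main classes numbered 8, namely mt-Nd1, mt-Nd2, mt-Nd3, mt-Nd4, mt-Nd5, mt-Nd6, mt-Co1 and mt-Co3, while mt-Atp8 was higher in all 4. By at least 20%, 8 of the 13 were lower in macrophage-like, 7 in fibroblast-like, 5 in endothelial-like and 6 in B cell-like cells, and 0 were at least 25% higher. Over all measured genes of these classes, in the same order, 23.5%, 16.9%, 19.6% and 26.8% were at least 20% lower. At least 25% higher were 19.9%, 7.91%, 16.6% and 23.3%. With median-of-ratios scaling 0, 1, 2 and 2 mt- genes were at least 25% higher, in the same order. The share over all genes was not counted under that scaling. In fibroblast-like cells mt-Co3, a core subunit of cytochrome c oxidase, had 1084 CPM in AC8 and 1672 CPM in WT, a ratio of 0.649 (0.625 to 0.673). In macrophage-like cells it had 1131 CPM in AC8 and 2008 CPM in WT, a ratio of 0.563 (0.533 to 0.595). In B cell-like cells it had 1855 and 2928 CPM, and in endothelial-like cells 1427 and 1808 CPM.

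The counts of the complex I genes of the mitochondrial genome were split. In fibroblast-like cells mt-Nd5 had 339.6 CPM in AC8 and 494 CPM in WT, mt-Nd3 had 99.7 and 161 CPM, and mt-Nd6, the only one of the 13 on the other strand, had 35.9 and 70.0 CPM. In macrophage-like cells mt-Nd2 had 611 CPM in AC8 and 1072 CPM in WT, and mt-Nd4 had 595 and 1012 CPM. In contrast mt-Nd4l, which lies just before mt-Nd4 and is known to share its messenger RNA, had 2448 CPM in AC8 and 2048 CPM in WT in fibroblast-like cells, a ratio of 1.20 (1.16 to 1.23), and 2013 and 2161 CPM in macrophage-like cells. These genes share 7 bases, mt-Atp8 and mt-Atp6 share 43, and mt-Nd5 and mt-Nd6 share 14 on opposite strands. Counts of the overlapping pairs are uncertain at least to that extent. Since mt-Nd4l and mt-Nd4 share a messenger RNA, UMIs of both can come from the same transcript. Their differing ratios thus need not be differing transcript levels, and where on the messenger RNA the reads lay was not tested. The sources used here do not say which end of the transcript the library kit read.

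Expressed as a share of the mt- UMIs alone, which no scaling of the class can change, most genes lay on the same side of WT in every class, though by unequal amounts. mt-Co3 took 7.11% of mt- UMIs in AC8 and 9.74% in WT in macrophage-like cells, 6.47% and 9.28% in fibroblast-like cells, and 6.14% and 7.91% in mural-like cells, and was lower in AC8 in 10 of 10 classes. mt-Nd4l took 12.7% of mt- UMIs in AC8 and 10.5% in WT in macrophage-like cells, and 14.6% and 11.4% in fibroblast-like cells, and was higher in 10 of 10. The shares of mt-Atp6, mt-Atp8 and mt-Co2 were also higher in AC8 in 10 of 10 classes and that of mt-Cytb in 9, and the shares of mt-Nd1, mt-Nd4 and mt-Nd5 were lower in 10 of 10. Those of mt-Nd2, mt-Nd3, mt-Nd6 and mt-Co1 were lower in 9 of 10. These counts give direction alone. The AC8 and WT intervals lay apart for every gene in fibroblast-like and macrophage-like cells. In NK cell-like and Schwann-like cells they overlapped for every gene but mt-Nd4l. For mt-Atp6 they also overlapped in dendritic-like, monocyte-like and endothelial-like cells, and for mt-Nd1 and mt-Nd4 in B cell-like and monocyte-like cells. In mural-like cells the AC8 and WT intervals overlapped for mt-Atp8 (6.37% and 6.25%), mt-Atp6, mt-Co2 and mt-Nd4l, and mt-Cytb was the gene of that group whose share was clearly apart, with 15.3% in AC8 and 11.9% in WT.

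Grouped after these values had been seen, the 5 genes mt-Co2, mt-Atp8, mt-Atp6, mt-Nd4l and mt-Cytb together took 58.0% of mt- UMIs in AC8 and 49.6% in WT in macrophage-like cells. They took 61.3% and 52.9% in fibroblast-like, 59.3% and 51.5% in endothelial-like, 58.2% and 48.9% in B cell-like and 63.4% and 57.1% in mural-like cells. In the smaller classes they took 55.3% and 47.4% (dendritic-like), 59.6% and 50.2% (T cell-like), 57.2% and 48.2% (NK cell-like), 61.1% and 51.3% (Schwann-like) and 57.0% and 46.2% (monocyte-like), AC8 before WT. Over every deposited cell of each library, with no filter and no class, they took 59.9% in AC8 (59.7 to 60.1) and 51.6% in WT (51.4 to 51.8). Members of both groups lie next to each other along the genome, mt-Co2, mt-Atp8 and mt-Atp6 between mt-Co1 and mt-Co3, and mt-Nd4l between mt-Nd3 and mt-Nd4. The share was higher in AC8 in all 10 classes, by least in mural-like and by most in monocyte-like cells, and library and genotype cannot be told apart here.

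**Figure D4:**
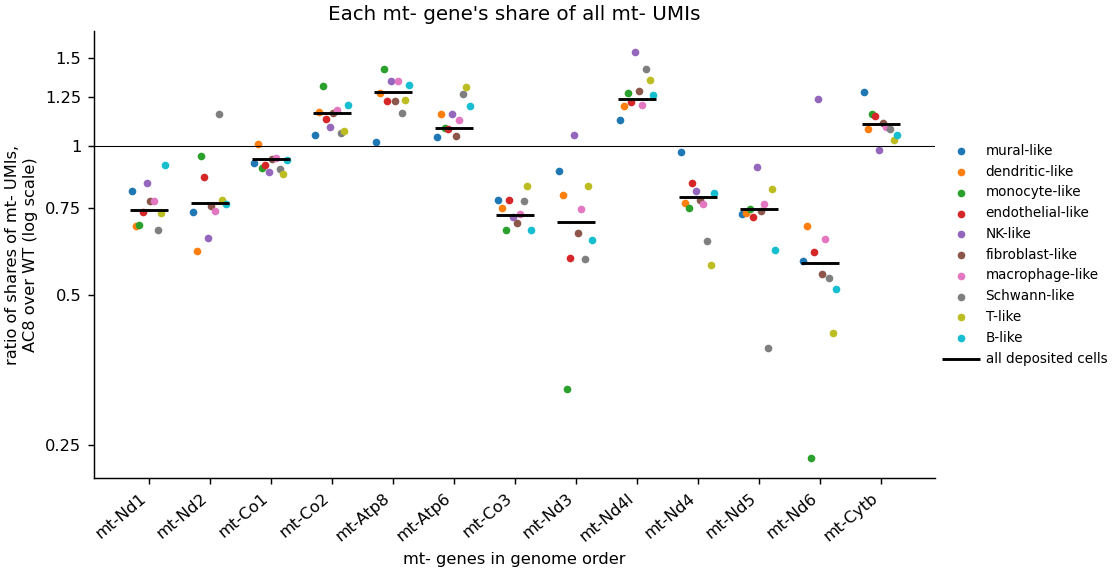
Ratio of AC8 over WT (y axis, log scale) of each mt- gene's share of all mt- UMIs, genes in genome order along the x axis, with 1 dot per cell class and a black bar for all deposited cells. The dots of mt-Co2, mt-Atp8, mt-Atp6 and mt-Nd4l lie above 1 in 10 of 10 classes and those of mt-Nd1, mt-Co3, mt-Nd4 and mt-Nd5 below 1 in 10 of 10; wide scatter in mt-Nd3 and mt-Nd6 goes with few UMIs in the small classes.

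Mural-like cells, with 77 AC8 and 81 WT cells, were set apart by the hypoxia-linked isoforms of complex IV. Cox4i2 (chr2:152754173-152765037, plus strand), the inducible isoform of subunit 4, had 1078 CPM in AC8 (924 to 1252) and 939 CPM in WT (792 to 1106) in mural-like cells, where it made up 47.9% and 49.8% of the Cox4i1 and Cox4i2 UMIs. Ndufa4l2 (chr10:127514967-127517154, plus strand), a relative of the complex IV subunit Ndufa4 that is known as a HIF target, had 966 CPM in AC8 and 834 CPM in WT, 67.4% and 70.2% of its pair. For both genes the intervals of the ratio spanned 1 over the whole class, whose clusters were filled unequally. Over every deposited cell, with no filter on depth, the shares of the pairs were lower in AC8, 50.8% (45.9 to 55.7) against 61.5% (57.3 to 65.6) in WT for Cox4i2 and 71.6% (65.9 to 76.8) against 84.7% (80.6 to 88.3) for Ndufa4l2. The level of Cox4i2 was highest in the cluster led by Rgs5 and Kcnj8, pericyte genes, with 1983 CPM of Cox4i2 in 12 AC8 cells and 1669 CPM in 32 WT cells, against 967 and 645 CPM in the cluster led by Acta2 and Myh11, smooth muscle genes, with 65 AC8 and 49 WT cells. Ndufa4l2 had 2833 CPM in AC8 (2103 to 3735) and 1440.5 CPM in WT (1107 to 1843) in the Rgs5-led cluster, and 735 CPM in AC8 and 589.8 CPM in WT in the Acta2-led one. Both genes were thus higher in AC8 within each cluster, with CPM intervals apart for Ndufa4l2 in the Rgs5-led cluster alone. Those of Cox4i2 in the Acta2-led cluster, 812 to 1142 in AC8 and 503 to 815 in WT, overlapped only at their ends. Intervals of the ratio were not computed for these genes by cluster. Cox4i2 stood among the 10 leading genes of the Rgs5-led cluster although it was not used to find it.

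Outside mural-like cells both isoforms were far lower and differed in where they were found. Cox4i2 had 70.0 CPM in AC8 and 42.2 CPM in WT in endothelial-like cells, a ratio of 1.66 (1.09 to 2.57), and 60.9 and 39.9 CPM in fibroblast-like cells, a ratio of 1.52 (1.26 to 1.85). In endothelial-like cells it lay mainly in the cluster led by Depp1, with 129 CPM in AC8 and 100.5 CPM in WT, and not in the Fabp4-led cluster, with 11.8 and 14.5 CPM. The share of that Depp1-led cluster was larger in AC8, 264 of 565 endothelial-like cells against 196 of 599 in WT. Among fibroblast-like cells the difference was widest in the cluster led by Mfap5 and Mfap4, with 62.2 CPM in AC8 (46.2 to 82.0) and 10.7 CPM in WT (2.91 to 27.3). The Gsn-led cluster had 117 CPM in AC8 and 83.4 CPM in WT, the Dcn-led cluster, with 518 AC8 and 786 WT cells, 26.0 and 31.3 CPM, and the Gfpt2-led cluster 0 UMIs in AC8 and 4 in WT.

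Ndufa4l2 was a gene of fibroblast-like cells as well, with 166 CPM in AC8 and 154 CPM in WT, 30.9% and 33.4% of its pair, and 504 of 1542 AC8 cells and 505 of 1896 WT cells had a UMI, at median depths of 2746.5 and 2160 UMIs. In endothelial-like cells it had 3 UMIs in AC8 and 22 in WT, 3.39 and 25.1 CPM, a ratio of 0.135 (0.0259 to 0.450). Those UMIs lay in 3 of 565 AC8 cells and 18 of 599 WT cells, and in macrophage-like cells, which should lack the gene, 3 of 704 AC8 cells and 3 of 538 WT cells had a UMI, or 1.22 and 3.39 CPM. Median depths were 1371 and 1300 UMIs in endothelial-like cells and 2981.5 and 1909.5 UMIs in macrophage-like cells, AC8 before WT. The AC8 endothelial-like value thus lay near the macrophage-like ones. Endothelial-like cells held more foreign RNA, with cardiomyocyte markers at 493 CPM in AC8 and 521 CPM in WT, against 72.6 and 89.1 CPM in macrophage-like cells. Macrophage-like cells thus set no background for them, and the part of foreign RNA in the endothelial-like values of either library was not tested. In dendritic-like cells Ndufa4l2 had no UMI in either library; with a limit of 3 counts, levels up to 5.96 CPM in AC8 and 16.1 CPM in WT cannot be told from 0.

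**Figure D5:**
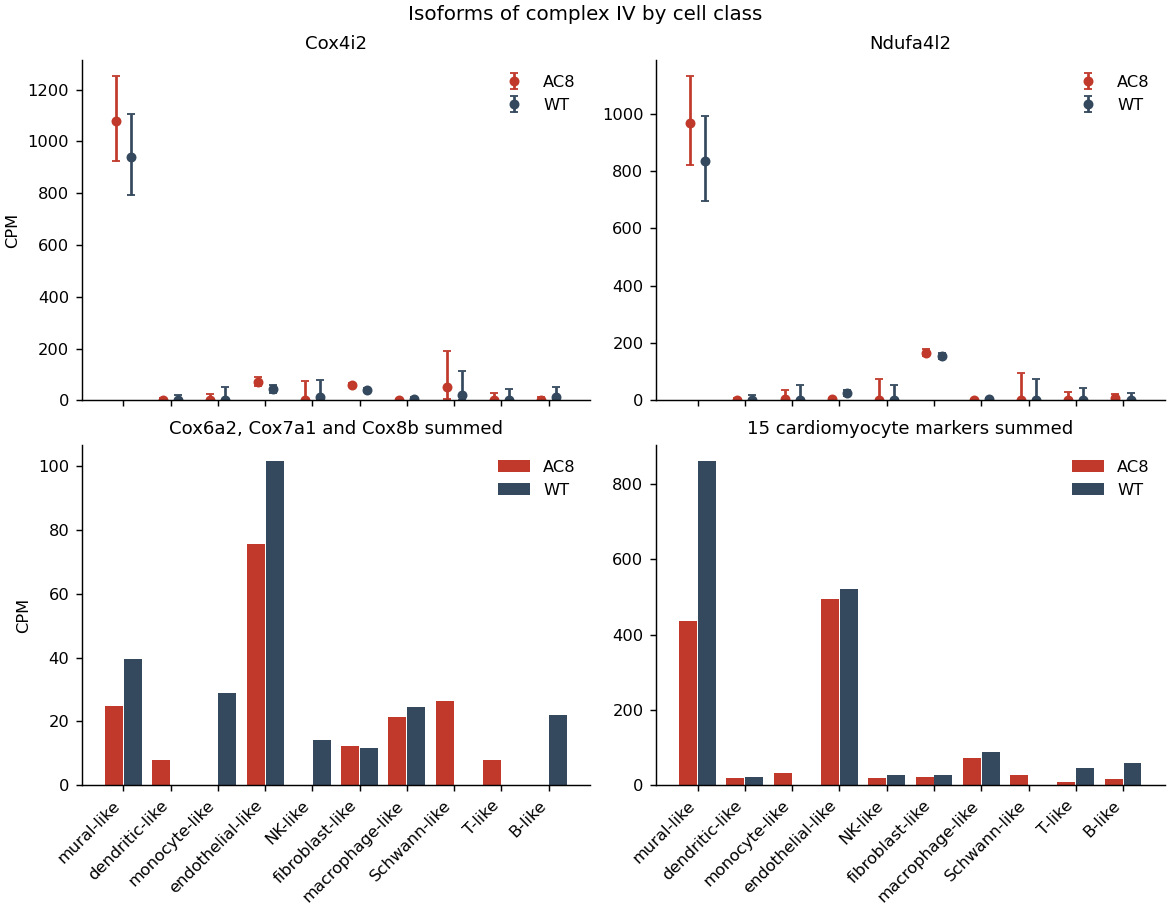
Levels (y axes, CPM) of Cox4i2 and Ndufa4l2 (upper panels, with exact 95% counting intervals), of the summed muscle isoforms Cox6a2, Cox7a1 and Cox8b and of 15 summed cardiomyocyte markers (lower panels) in 10 classes, AC8 in red left of WT in grey-blue. Cox4i2 and Ndufa4l2 stand near 1000 CPM in mural-like cells of both libraries, and the muscle isoforms are highest in endothelial-like cells, with 75.7 CPM in AC8 and 101.5 CPM in WT.

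The muscle isoforms of complex IV, which in the heart belong to cardiomyocytes, were found at low levels and were highest in endothelial-like cells. Cox6a2, Cox7a1 and Cox8b together had 75.7 CPM in AC8 and 101.5 CPM in WT in endothelial-like cells, 21.5 and 24.6 CPM in macrophage-like cells and 12.4 and 11.7 CPM in fibroblast-like cells. In endothelial-like cells the 15 cardiomyocyte markers, none at 0, summed to 493 CPM in AC8 and 521 CPM in WT. Macrophage-like cells had 72.6 CPM of them in AC8 and 89.1 CPM in WT, with 2 of the 15 at 0 in both libraries, and fibroblast-like cells 22.8 and 26.4 CPM, with 1 at 0 in WT. The muscle isoforms thus followed the order of those markers in these 3 classes. In mural-like cells the markers had 436 CPM in AC8 and 860.4 CPM in WT. The isoforms there had 24.9 CPM in AC8 and 39.4 CPM in WT, from 4 and 6 UMIs. Mural-like cells thus came after endothelial-like ones for both sets in AC8. In WT they were above endothelial-like cells for the markers and below them for the isoforms. The part of free cardiomyocyte RNA in the muscle isoforms was not tested. Cox6b2, an isoform known from testis, had under 30 UMIs in every class.

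Mural-like cells also held the largest mt- difference in AC8's favour. mt-Cytb, the mitochondrial subunit of complex III, had 7225 CPM in AC8 and 4433 CPM in WT, a ratio of 1.63 (1.48 to 1.79), and mt-Nd4l had 7032 and 4913 CPM. mt-Co3 had 2899 CPM in AC8 and 2942 CPM in WT. The clusters within the class were unequally filled, and the nuclear ratio was 1.32 in the Acta2-led cluster and 1.01 in the Rgs5-led one. The mt- ratio was 1.22 in the Acta2-led cluster and 0.974 (0.874 to 1.08) in the Rgs5-led one, and in the 3 AC8 and 3 WT cells above 4000 UMIs it was 0.438. In cells of 1000 to 1500 UMIs the nuclear ratio was 1.02, and from 2000 to 3000 UMIs 1.71, with 26 AC8 and 16 WT cells in that bin, and above 4000 UMIs 0.692 with 3 cells in each library.

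The other genes of the mitochondrion, taken from lists of known function, partly resembled the nuclear subunits. Of 76 measured genes for proteins of the mitochondrial ribosome, which translates the mt- messages, 48 were at least 25% higher in AC8 macrophage-like cells and 1 at least 20% lower, with a median log2 ratio of 0.40. Mrpl40 had 46.7 CPM in AC8 and 13.6 CPM in WT. Of 22 genes for carriers and import proteins 12 were higher and 2 lower, among them Tomm22, an import receptor, with 145 CPM in AC8 and 83.1 CPM in WT. Of 17 genes of the citric acid cycle and pyruvate dehydrogenase 7 were higher and 1 lower, with Mdh2, malate dehydrogenase, at 167 CPM in AC8 and 104 CPM in WT. Of 31 measured assembly factors 12 were higher and 1 lower, with Uqcc3 of complex III at 41.4 CPM in AC8 and 13.6 CPM in WT. All these stood beside 19.9% higher and 23.5% lower over all genes of the class. These lists, and those below, were read over whole classes. The macrophage-like counts thus include the unequally filled Spp1-led cluster and cells of unequal depth, and were not repeated without them.

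Lists for the expression of mitochondrial DNA and for its regulators lay nearer the class as a whole. Of 17 measured genes of mitochondrial gene expression 4 were at least 25% higher and 2 at least 20% lower in AC8 macrophage-like cells, with Tufm, a mitochondrial translation factor, at 42.6 CPM in AC8 and 18.7 CPM in WT. Of 11 measured regulators of mitochondrial biogenesis, among them Nrf1 and Gabpa, 0 were higher and 2 lower. In fibroblast-like cells 0 of 11 were higher and 4 lower, beside 7.91% and 16.9% over all genes of that class. In endothelial-like cells 0 of 9 were higher and 3 lower, beside 16.6% and 19.6%. In B cell-like cells 1 of 3 was higher, Myc, a growth regulator, with 429 CPM in AC8 and 258 CPM in WT. The others, Yy1 and Hif1a, were at least 20% lower there, with ratios of 0.572 and 0.538, and the interval of Hif1a spanned 1. Over all B cell-like genes 23.3% were higher and 26.8% lower. In fibroblast-like cells 16 of 78 mitochondrial ribosomal protein genes were higher and 0 lower, and Slc25a4, the ADP/ATP carrier typical of heart and muscle, had 425 CPM in AC8 and 270 CPM in WT. In endothelial-like cells 16 of 73 mitochondrial ribosomal protein genes were higher and 3 lower, beside 16.6% and 19.6% over all genes of that class.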

How the data were processed

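Per the labels' protocols, the authors generated the deposited counts, whole numbers of UMIs per gene and cell, with Cell Ranger. The submitters' processing notes name the build mm10, and the sources used here name no version of Cell Ranger. Cells were kept with at least 1000 UMIs, 500 genes and at most 10% mt- UMIs. Of 4867 AC8 and 5800 WT cells, 1126 and 2066 were too shallow, 18 and 15 of the rest were over the mt- limit, and 145 and 173 were removed as doublets, scored against simulated ones at 0.8% per 1000 cells. Log-scaled counts of 2000 variable genes without the members, 30 components, 15 neighbours and the Leiden algorithm at resolution 1 gave clusters. A cluster took the type whose markers stood highest if at least 3 were detected in 10% of its cells and no other lineage scored at least 0.5 times as high, a limit set after the clusters were seen.

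UMIs were summed by class and library and scaled to 1000000 (CPM). Intervals are exact at 95%: Poisson for CPM, conditional binomial for ratios, Clopper-Pearson for shares. They treat UMIs as independent. Named members are the 5 highest and 5 lowest log2 ratios among members with at least 100 UMIs per main class, the member with the most UMIs per complex, all mt- genes and the isoform pairs; the genes that differ in direction between classes, and those compared across classes, were added after their values were seen. Of other lists, members past 1.5-fold could be named. The members and lists were chosen with earlier results of these data known. Positions came from GENCODE vM21 on GRCm38, matched for 94 of 96 members. The ratio code was tested on simulated data. Clustering used leidenalg 0.10.2, scikit-learn 1.9.0 and igraph 0.11.9, tables and intervals pandas 2.3.3, scipy 1.17.1 and numpy 2.4.6, and plots matplotlib 3.10.9, under Python 3.11.15. The alternatives were other limits on mt- share, depth and doublets, other clusterings, scalings, thinning, pseudocount, minimum and fold.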

Additional observations from a re-analysis of the deposited data

Results flagged for a closer look

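Some members lay above WT in one main class and below it in another, with counting intervals on different sides of 1. They numbered 5 of 82 measured nuclear members and 4 of 13 mt- genes. The share of all measured genes that do the same was not counted, so these counts stand without a background. The differences between classes were not tested, and the intervals are those of single genes, unadjusted for the number read. A set of 3 subunits of ATP synthase were higher in AC8 fibroblast-like and macrophage-like cells and lower in endothelial-like cells. Atp5j, a peripheral stalk subunit, had ratios of AC8 over WT of 1.09, 1.16 and 0.892 in these classes, Atp5k, subunit e, 1.12, 1.34 and 0.768, and Atp5mpl, a small proteolipid, 1.18, 1.44 and 0.816, with 0.690 in B cell-like cells. Cox4i1 stood at 1.07 in fibroblast-like, 1.18 in macrophage-like and 0.708 in B cell-like cells, and Ndufb2, an accessory subunit of complex I, at 1.29 in macrophage-like and 0.489 in B cell-like cells.

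Among mt- genes, mt-Co2 had ratios of 1.08 in fibroblast-like, 1.15 in endothelial-like, 1.13 in B cell-like and 0.909 in macrophage-like cells, mt-Nd4l 1.20, 1.24, 1.18 and 0.931 in the same order, and mt-Cytb 1.03 in fibroblast-like, 1.16 in endothelial-like and 0.839 in macrophage-like cells. mt-Atp6 stood at 1.12 in B cell-like and 1.09 in endothelial-like cells, and at 0.971 in fibroblast-like and 0.867 in macrophage-like cells. As shares of mt- UMIs these 4 genes were higher in AC8 in every main class. The intervals overlapped for mt-Atp6 in endothelial-like and for mt-Cytb in B cell-like cells. The summed mt- ratio itself was 1.27 in mural-like cells and 0.935 in B cell-like, 0.929 in fibroblast-like and 0.771 in macrophage-like cells.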

How the results depend on the processing

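Over 94 alternative values of the summed ratios, 65 stayed within the interval of the value reported, 25 moved beyond it and 4 crossed to the other side of 1 from a value whose own interval lay off 1. In all 9 crossed 1, each in endothelial-like or B cell-like cells. Nuclear ratios stayed above 1 in fibroblast-like (1.12 to 1.20) and macrophage-like cells (1.20 to 1.42), and mt- ratios below 1 (0.922 to 0.997 and 0.767 to 0.886 in the same classes). Single bins of depth were not among these alternatives. In cells of 1000 to 1500 UMIs the nuclear ratios were 0.970 (fibroblast-like) and 0.968 (macrophage-like), and the mt- ratios 1.11 and 1.29. The fibroblast-like mt- ratio was also above 1 at 1500 to 2000 UMIs, 1.09. The share of the 5 mt- genes was higher in AC8 under all 39 alternatives run. These genes had been grouped for their higher shares in AC8, and the alternatives draw on the same libraries. Their direction under the alternatives is thus not an independent test. The 4 summed ratios that crossed from a value off 1 were the B cell-like mt- ratio and the endothelial-like nuclear ratio. The B cell-like mt- ratio was 1.03 in cells of at least 2000 UMIs, 1.18 in cells of 1500 to 3000 UMIs and 1.02 by median-of-ratios scaling. The endothelial-like nuclear ratio was 0.974 over every deposited cell. The cause was not tested. That scaling moved all B cell-like genes by 0.13 (log2).

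At least 2000 UMIs gave nuclear ratios of 1.17 (fibroblast-like), 1.33 (macrophage-like) and 1.06 (B cell-like), mt- ratios of 0.797 (macrophage-like) and 1.06 (endothelial-like), 3 and 2 mt- genes lower in endothelial-like and B cell-like cells, and an endothelial-like gap of 4.58 points for the 5 mt- genes. Median-of-ratios scaling gave nuclear ratios of 1.20 (fibroblast-like), 1.42 (macrophage-like) and 1.06 (B cell-like), mt- ratios of 0.974 (fibroblast-like) and 0.806 (macrophage-like), and 25 higher fibroblast-like members, with 2 lower. Thinning to 1000 UMIs gave fibroblast-like ratios of 1.12 (nuclear) and 0.952 (mt-), macrophage-like ratios of 1.26 and 0.824, and 36 higher macrophage-like members. Cells of 1500 to 3000 UMIs, added after seeing the data, gave fibroblast-like ratios of 1.13 (nuclear) and 0.997 (mt-), macrophage-like ratios of 1.23 and 0.886 and a B cell-like nuclear ratio of 0.877, 30 and 5 higher members in macrophage-like and B cell-like cells, 3 and 2 lower mt- genes in endothelial-like and B cell-like cells, and gaps of 9.74 (macrophage-like) and 12.5 points (B cell-like). Without the Spp1-led cluster, also added later, macrophage-like values were 1.20 (nuclear), 0.845 (mt-) and 27 higher members, and without the Gfpt2-led cluster the fibroblast-like nuclear ratio was 1.13. A 5% mt- limit gave 0.979 and no doublet removal 0.899 for the B cell-like mt- ratio, and every deposited cell 0.982 for the endothelial-like one. A 1.5-fold limit left 1 (fibroblast-like), 13 (macrophage-like), 1 (endothelial-like) and 6 (B cell-like) higher nuclear members and 3 (fibroblast-like) and 2 (endothelial-like) lower mt- genes, and a minimum of 100 UMIs left 5 higher B cell-like members. Shares over all genes were not counted under these alternatives, so the counts of members given here stand without a background. Over every deposited cell the mural-like shares were 50.8% in AC8 and 61.5% in WT for Cox4i2 and 71.6% and 84.7% for Ndufa4l2, with intervals apart, and the endothelial-like ones 0.637% and 2.83% for Ndufa4l2 and 3.40% and 3.87% for Cox8b. No paired analysis was possible because each genotype has 1 library. Depth limits single members of the B cell-like class, where the ratio of Ndufa13 had an interval of 1.08 to 3.17.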
